A study of Homo sapiens with 9 samples.

Results

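Transcripts of 10 genes of the tumour necrosis factor (TNF) superfamily were followed in the triple-negative breast cancer cell line MDA-MB-231. The genes are the ligands TNF, TNFSF10 and TNFSF18 and the receptors TNFRSF1A, TNFRSF10A, TNFRSF10B, TNFRSF10D, TNFRSF12A, TNFRSF21 and FAS. They were taken by gene symbol, and all 10 were found among the 58735 rows of the tables that carry a symbol. The RNA-seq libraries, 9 in all, were labelled sgL1 (6 libraries) or sgCtrl (3 libraries). The series title places all cells under lowered oxygen for 6 h, so both groups share the hypoxia and no library without it was analysed here. The design text speaks of knockout of UFL1 or UFM1 where the title speaks of knockdown, and no library named for UFM1 was analysed here. The name sgL1 was taken to mean CRISPR guides to UFL1, the ligase that attaches the small protein UFM1 to its targets, and sgCtrl to mean their control. Neither reading is written in the labels, which also leave out whether cells were clones, pools or separate cultures, so p-values measure the spread between these libraries, which may be technical.

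Ligands of this family act as trimers, on the cell surface or after release, and gather their receptors into clusters. The death receptors FAS, TNFRSF1A, TNFRSF10A, TNFRSF10B and TNFRSF21 carry an intracellular death domain. FAS and both of the TNFRSF10 death receptors recruit the adaptor FADD and caspase-8 and can start apoptosis, whereas TNFRSF1A mainly signals through TRADD, RIPK1 and TRAF2 to NF-kB and can switch to cell death when that branch fails. TNFRSF10D binds TRAIL, the product of TNFSF10, but has a truncated death domain and is known as a decoy. TNFRSF12A, the receptor of TWEAK, has no death domain and signals through TRAF proteins. TNFSF18 is the ligand of TNFRSF18 (GITR), a costimulatory receptor of T cells.

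Libraries held 15420073 to 17038409 counts on named genes. UFL1 itself lay at 25.4 to 27.4 CPM (counts scaled by library size and TMM factor) in sgCtrl. It lay at 12.9 to 15.2 CPM in sgL1 libraries 1-3 and at 20.0 to 22.9 CPM in sgL1 libraries 4-6. All sgL1 libraries were thus below all controls but at unequal levels. With all sgL1 libraries together the fall of UFL1 did not pass (log2 fold change -0.57, edgeR adjusted p = 0.126). Against the same controls it passed for libraries 1-3 (-0.93, edgeR adjusted p = 1.24e-08) and for libraries 4-6 (-0.28, edgeR adjusted p = 0.0145). Of 8 genes that mark MDA-MB-231 as a mesenchymal-like line, 1, TWIST2, was listed at 0, and the sum of the 8 was 5926 to 5993 CPM in sgCtrl and 5571 to 5835 CPM in sgL1, lower in every sgL1 library. Of the 7 of them that were tested AXL, CAV1, EGFR and ZEB1 fell and CD44 rose (edgeR adjusted p under 0.05); their part in the results was not tested. Of 12 leukocyte markers 10 stayed under 1 CPM in every library and CD3E, MS4A1 and FCGR3A were at 0, and the sum of the list was 2.95 to 3.45 CPM in sgCtrl and 3.58 to 5.09 CPM in sgL1. Of 8 fibroblast markers 6 stayed under 1 CPM in every library and LUM was at 0, with a sum of 11.6 to 14.5 CPM in sgCtrl and 15.9 to 20.6 CPM in sgL1. Both sums were higher in sgL1, and their part in the results was not tested. Of 8 luminal breast markers 0 were at 0 in all libraries and 2 stayed under 1 CPM in every library. The sum of this list was 140 to 145 CPM in sgCtrl and 136 to 161 CPM in sgL1, with KRT19 at means of 99.8 and 102 CPM. FOXA1 rose from a mean of 16.6 to 22.8 CPM (edgeR adjusted p = 3.55e-04), and the other 5 of 6 tested were not called.

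Of the 10 genes, 8 passed the filter on low counts and were tested; TNF and TNFSF10 did not. TNFRSF10D and TNFRSF10B rose in sgL1 and TNFRSF21 and TNFSF18 fell (adjusted p under 0.05 by edgeR, Benjamini-Hochberg over 15242 genes). Over all genes tested 9.49% were called, 5.52% higher and 3.98% lower, and without sgCtrl 1 or sgCtrl 2 the 1447 genes called in either direction became 948 and 901. In the same 4 genes, and only these of the 8, all sgL1 libraries lay on one side of all controls, as they did for 14.0% of all genes tested, 7.61% above and 6.40% below. The median log2 fold change of the 8 was -0.01, beside 0.002 over all genes tested.

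Of the genes that fell, the stretch of 250 bases before the RefSeq start site is shown for both, since it borders the start of transcription given by RefSeq. The sequences are from RefSeq (GRCh38.p14), minus strand, 5′ to 3′, at chr1:173050942-173051191 for TNFSF18 and chr6:47309906-47310155 for TNFRSF21. In GENCODE release 29 TNFSF18 starts at 173050963, inside the stretch shown, so the start sites given for this gene differ. Capitals mark matches to any of 4 motifs searched on both strands: ACGTG and GCGTG, forms of the core bound by hypoxia-inducible factors, TGANTCA, the AP-1 motif, and the NF-kB consensus.
TNFSF18: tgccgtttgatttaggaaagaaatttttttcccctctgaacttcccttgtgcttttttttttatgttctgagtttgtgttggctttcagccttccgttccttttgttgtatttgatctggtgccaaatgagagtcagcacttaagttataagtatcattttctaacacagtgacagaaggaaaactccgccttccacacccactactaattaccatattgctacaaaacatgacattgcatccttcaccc
TNFRSF21: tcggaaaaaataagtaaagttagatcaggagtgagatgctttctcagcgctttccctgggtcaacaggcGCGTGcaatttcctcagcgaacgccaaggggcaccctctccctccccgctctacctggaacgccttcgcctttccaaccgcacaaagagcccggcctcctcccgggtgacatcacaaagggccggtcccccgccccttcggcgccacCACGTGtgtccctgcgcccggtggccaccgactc
The TNFSF18 stretch, with a GC content of 38.8%, held none of the 4 motifs. The TNFRSF21 stretch, with a GC content of 62.0%, held GCGTG from -181 to -177 and, from -34 to -29 relative to the start site, CACGTG, a palindrome in which ACGTG reads on both strands and overlaps itself. Among 35116 promoter stretches of the same length, 18.5% held ACGTG, 32.2% GCGTG, 6.57% TGANTCA and 9.96% the NF-kB consensus. These matches describe letters in this window only.

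TNFRSF12A was the most abundant of the 10 transcripts per length in both groups, and TNF, TNFSF10, TNFSF18 and FAS were the 4 least abundant (FPKM, fragments scaled by transcript length and depth). In sgCtrl the mean levels were 75.4 FPKM for TNFRSF12A, 50.6 FPKM for TNFRSF21, 34.1 FPKM for TNFRSF10B, 28.6 FPKM for TNFRSF10D, 25.3 FPKM for TNFRSF1A and 16.4 FPKM for TNFRSF10A. TNFSF18 followed at 2.56 FPKM, FAS at 1.72 FPKM and TNFSF10 at 0.0665 FPKM, and the ranges of neighbours in this order did not overlap over the 3 libraries. In sgL1 the order changed: TNFRSF10B (39.5 FPKM), TNFRSF10D (37.6 FPKM) and TNFRSF21 (35.6 FPKM) followed TNFRSF12A, with TNFRSF10D overlapping both TNFRSF10B and TNFRSF21 in range. FAS (1.71 FPKM) also overlapped TNFSF18 (0.715 to 1.56 FPKM) there.

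**Figure D1:**
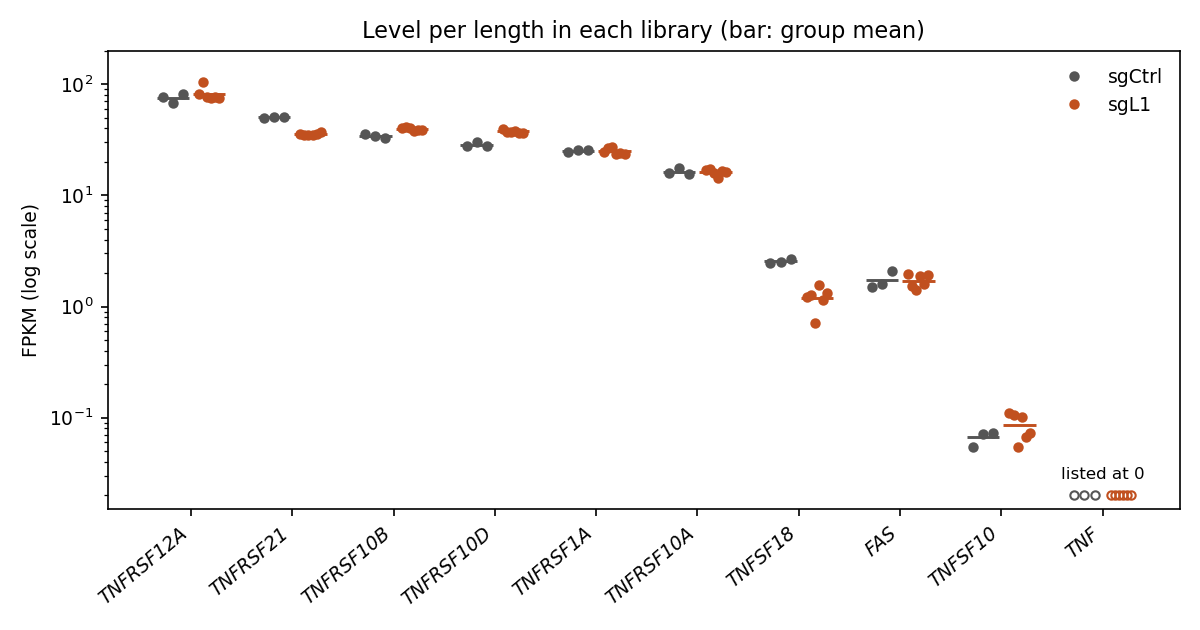
FPKM on a log axis of the 10 genes in each of the 3 sgCtrl (grey) and 6 sgL1 (orange) libraries, with bars at the group means and TNF drawn as open circles because it is listed at 0. TNFRSF12A leads in both groups, while the points of TNFRSF21, TNFRSF10B, TNFRSF10D and TNFSF18 do not overlap between groups.

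Of the ligands, TNFSF18 was the only one tested, and it fell to 46.9% of its control level. TNFSF18 (ENSG00000120337, protein-coding, chromosome 1, 173039960 to 173050963, minus strand, GRCh38) measured 4.98, 5.15 and 5.44 CPM in sgCtrl and 1.45 to 3.16 CPM, median 2.51, in sgL1. Every sgL1 library was below every sgCtrl library, and sgL1 3 was the lowest, with 23 counts where the controls held 78, 82 and 85. The means were 5.19 ± 0.234 CPM (SD, n = 3) and 2.44 ± 0.564 CPM (SD, n = 6), a difference of -1.09 on the log2 scale (SE 0.19, adjusted p = 1.84e-04 by edgeR). With 23 to 85 counts a library, counting alone gave this gene an error of 10.8% to 20.9% per library. Its receptor TNFRSF18 held 3 to 11 counts a library and was not tested.

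TNFSF10, which encodes TRAIL (ENSG00000121858, chromosome 3, 172505508 to 172523507), was near the limit of detection. It had 3, 4 and 4 counts in sgCtrl and 3 to 6 counts in sgL1, where 3 counts correspond to 0.177 to 0.195 CPM. The groups overlapped. The ratio of the summed rates, 29 counts in sgL1 against 11 in sgCtrl, was 1.29 with a 95% exact interval of 0.624 to 2.86 that covers counting error only, and comparing the group means of log2 CPM by exact permutation (two-sided, 84 splits, smallest possible p 0.0119) gave p = 0.321. A change of TNFSF10 was not detectable at this depth.

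TNF (ENSG00000232810, chromosome 6, 31575567 to 31578336, plus strand), the founding cytokine of the family, was listed at 0 counts in all 9 libraries. Whether this value reflects the level of TNF cannot be told here, since most of its neighbours were at 0 as well. Of 101 other protein-coding genes that lie at least partly within 1000 kb of TNF, 75 (74.3%) were listed at 0 in every library, against 17.4% of all 19790 protein-coding genes looked at. Around the other 9 genes the share was lowest for TNFRSF1A, with 0 of 49 genes, and highest for TNFSF10, with 2 of 8 genes.

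Genes near TNF with 0 or few counts included ones with general cell functions. TUBB, a tubulin, FLOT1, a membrane scaffold protein, and DDX39B, an RNA helicase of messenger RNA export, were at 0 in every library, and the chaperone BAG6 had 6 counts over all libraries; these 4 were chosen after their values were seen. Counts were not absent from the whole stretch, since TCF19 had 233 counts per library on average and HLA-B 111. The neighbouring ligands LTA and LTB lie -3.51 and 6.96 kb from the start of TNF and were listed at 0 too. By 1000 kb steps, the median protein-coding gene held 0 counts in each step from 3000 kb before to 2000 kb after TNF, and 2315 counts summed over the libraries in the next step. The cause was not tested. TNFRSF21 lies on the same chromosome, but of the 14 protein-coding genes around it only 2 were at 0.

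**Figure D2:**
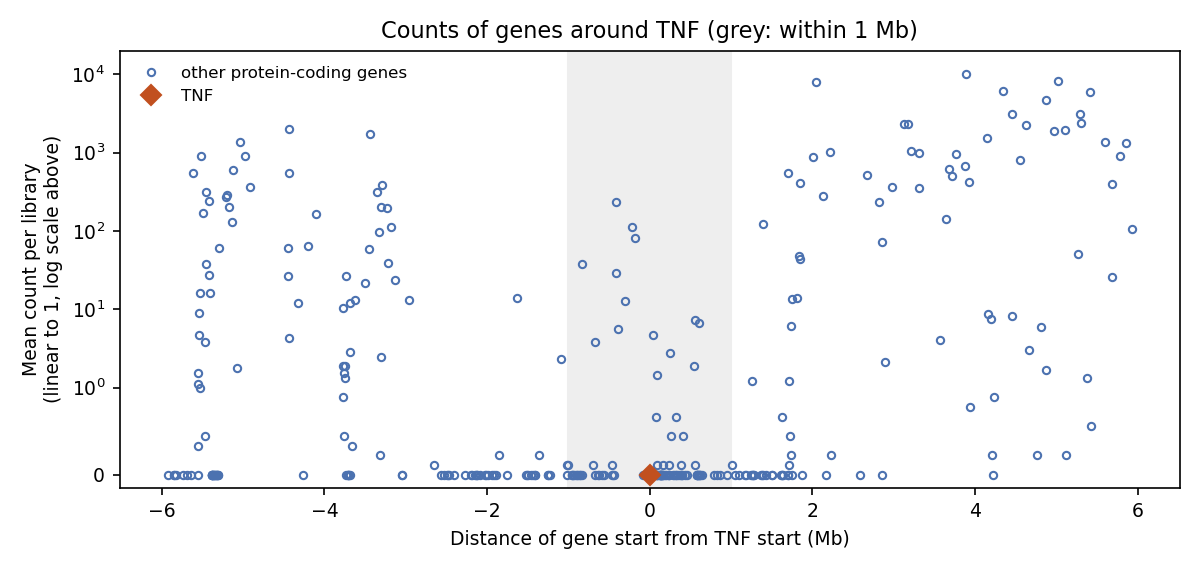
Mean count per library (linear up to 1, log scale above) of protein-coding genes against the distance of their start from the TNF start in Mb, with TNF as a diamond and the grey band marking 1 Mb to each side. Most genes in the band sit at 0, like TNF, while few do more than 2 Mb after it.

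Receptors of TRAIL rose in part. TNFRSF10D, the decoy (ENSG00000173530, chromosome 8, 23135588 to 23164030), measured 99.8, 108 and 98.5 CPM in sgCtrl and 130 to 142 CPM, median 134, in sgL1. All sgL1 libraries lay above all controls, within a narrow band. The means were 102 ± 5.33 CPM (SD, n = 3) and 134 ± 4.17 CPM (SD, n = 6), a difference of 0.39 on the log2 scale (SE 0.05, adjusted p = 4.71e-07 by edgeR). 

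TNFRSF10B, a death receptor and a target of p53 (ENSG00000120889, chromosome 8, 23020133 to 23069179), measured 186, 177 and 169 CPM in sgCtrl and 197 to 212 CPM, median 206, in sgL1. The groups did not overlap, although the lowest sgL1 library stood close above the highest control. The rise of 0.21 on the log2 scale (SE 0.04; edgeR adjusted p = 8.97e-04) was 1.16-fold. TNFRSF10A, the other death receptor for TRAIL (chromosome 8, 23190452 to 23225126), measured 47.5, 52.4 and 46.4 CPM in sgCtrl and 42.8 to 50.9 CPM, median 48.4, in sgL1. Its groups overlapped, and the log2 fold change of -0.02 did not pass (edgeR adjusted p = 0.908, 95% interval -0.14 to 0.10). Of its exon bases 16.6% overlap exons of antisense genes, and the use of strand in counting is not given in the sources used here. The second decoy, TNFRSF10C, held 19 to 45 counts a library and was not called (log2 fold change 0.31; edgeR adjusted p = 0.498).

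Per length, the share of the decoy TNFRSF10D in the sum of the 4 TRAIL receptors was 34.5% to 36.8% in the sgCtrl libraries and 38.8% to 41.6% in the sgL1 libraries. The share of TNFRSF10A was 19.7% to 21.3% and 15.7% to 17.8%, while TNFRSF10B took 41.1% to 44.2% and 40.9% to 42.4%. The ratio of TNFRSF10D to the sum of TNFRSF10A and TNFRSF10B was 0.568 ± 0.0246 (SD, n = 3) in sgCtrl and 0.677 ± 0.0300 (SD, n = 6) in sgL1, with no overlap between groups. These shares combine the genes above and are given as a description. Of the 50-base words in their transcripts 0.512% (TNFRSF10A), 1.00% (TNFRSF10B) and 0.831% (TNFRSF10D) occur in transcripts of any other gene in GENCODE release 29. Words of TNFRSF10C were not looked up, and exact words do not cover reads placed with mismatches.

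**Figure D3:**
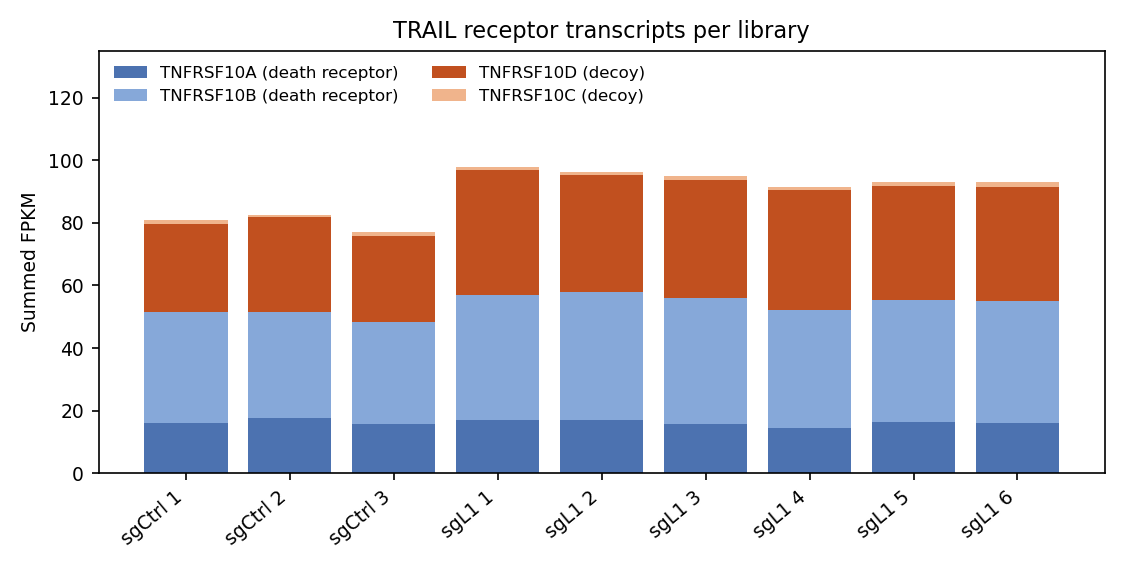
Stacked FPKM of the TRAIL receptors TNFRSF10A, TNFRSF10B, TNFRSF10D and TNFRSF10C in each library, from 0. The sums are 77.0 to 82.4 FPKM in sgCtrl and 91.5 to 97.9 FPKM in sgL1, and the TNFRSF10D part is larger in every sgL1 library than in any control.

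TNFRSF21, also called death receptor 6 (ENSG00000146072, chromosome 6, 47231532 to 47309905, minus strand), fell and had the smallest adjusted p of the 8 tested genes. It measured 180, 185 and 185 CPM in sgCtrl and 125 to 136 CPM, median 129, in sgL1. The groups were far apart compared with the spread within them. The means were 183 ± 2.93 CPM (SD, n = 3) and 129 ± 3.68 CPM (SD, n = 6), 70.5% of control, with or -0.51 on the log2 scale (SE 0.04, adjusted p = 4.45e-10 by edgeR).

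TNFRSF1A, FAS and TNFRSF12A, receptors of TNF, Fas ligand and TWEAK, were not called. TNFRSF1A (chromosome 12, 6328757 to 6342114) measured 100, 104 and 103 CPM in sgCtrl and 94.9 to 109 CPM, median 98.1, in sgL1. Its log2 fold change was -0.02 (edgeR adjusted p = 0.848) with a 95% interval of -0.12 to 0.08. FAS (chromosome 10, 88990582 to 89015785) measured 6.39, 6.85 and 8.84 CPM in sgCtrl and 6.00 to 8.50 CPM, median 7.43, in sgL1. The groups overlapped throughout, and the 95% interval of its log2 fold change ran from -0.27 to 0.27 (edgeR adjusted p = 0.996), at 95 to 138 counts a library. FAS shares 380 of its 4253 exon bases with ACTA2 on the opposite strand.

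TNFRSF12A (chromosome 16, 3018445 to 3022383) measured 143, 128 and 151 CPM in sgCtrl and 139 to 194 CPM, median 144, in sgL1. The library sgL1 2, at 194 CPM, stood alone, and the other 5 sgL1 libraries, at 139 to 152 CPM, overlapped the controls. The log2 fold change was 0.12 (SE 0.12; edgeR adjusted p = 0.644) with a 95% interval of -0.11 to 0.35. Its ligand TWEAK, encoded by TNFSF12, had a log2 fold change of 0.41 that was not called (edgeR adjusted p = 0.0971). Against the same controls TNFSF12 was called for sgL1 libraries 4-6 (0.60, edgeR adjusted p = 0.00391) and not for libraries 1-3 (0.18, edgeR adjusted p = 0.529), and between the sgL1 sets it was not called (edgeR adjusted p = 0.0934).

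**Figure D4:**
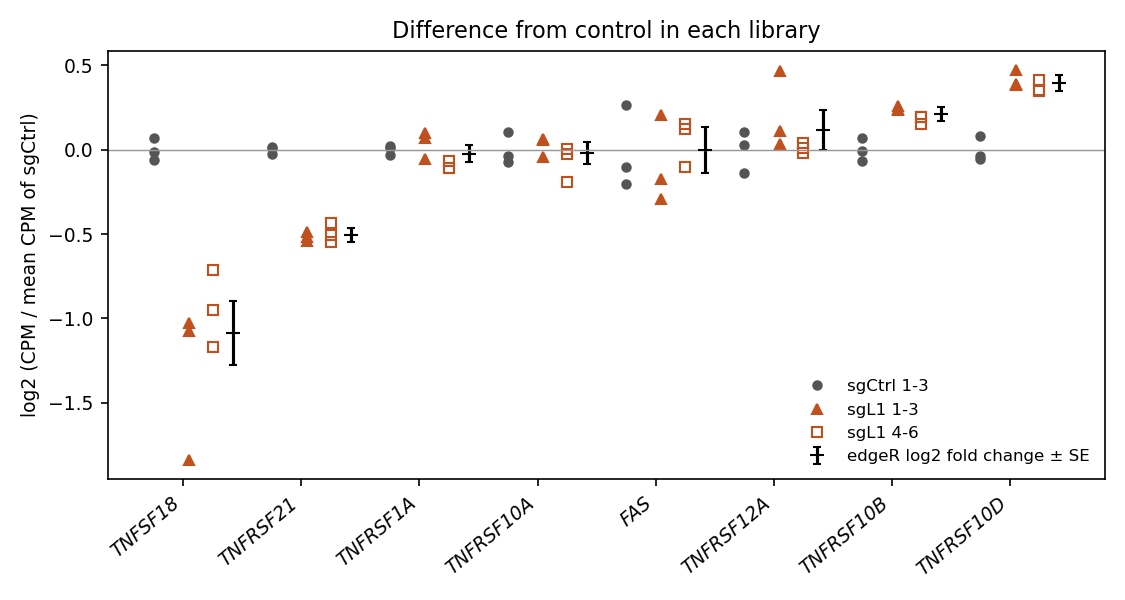
log2 ratio of each library's CPM to the sgCtrl mean for the 8 tested genes: grey circles for sgCtrl, filled triangles for sgL1 1-3, open squares for sgL1 4-6, and in black the edgeR log2 fold change with its SE. TNFSF18 and TNFRSF21 lie below 0 and TNFRSF10B and TNFRSF10D above 0 in all 6 sgL1 libraries.

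The sgL1 libraries numbered 1-3 and 4-6, which differ in UFL1, were also compared; the split follows the numbers in the titles, was taken up because earlier results of these data had shown the libraries apart, and compares sets of libraries whose meaning the labels do not give. Of the 8 genes, 0 were called between them (edgeR adjusted p under 0.05), while 2.14% of 14837 genes tested were called higher and 1.86% lower in libraries 1-3. DESeq2 and limma-voom also called 0. At an unadjusted p under 0.05 edgeR and DESeq2 each had 1 gene, TNFRSF1A, and limma-voom had 2, TNFRSF1A and TNFRSF12A. Without sgL1 1, TNFRSF1A was called (log2 fold change 0.18; edgeR adjusted p = 0.0350). Set against the same 3 controls, TNFRSF21 had log2 fold changes of -0.52 for libraries 1-3 and -0.50 for libraries 4-6. TNFRSF10D had 0.42 and 0.37, TNFRSF10B 0.24 and 0.18, and TNFSF18 -1.27 and -0.93. All 8 of these values were called in their own fit (edgeR adjusted p from 8.70e-14 to 8.28e-04), where 15.2% of genes were called for libraries 1-3 and 12.3% for libraries 4-6. The comparisons share the controls. Of the called genes TNFSF18 had the largest difference between libraries 1-3 and 4-6, -0.34 on the log2 scale, which did not pass (edgeR adjusted p = 0.494).

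Among the other ligands, TNFSF15 rose, and among the other receptors RELT rose; 0 of either list passed as lower. These counts, 1 of 6 and 1 of 12 tested, stand beside 9.49% called over all genes tested. Of 15 other ligands 6 were tested and 1 was called (median log2 fold change 0.09). TNFSF15, a ligand known for its action on T cells and endothelium, measured 3.19 to 4.80 CPM in sgCtrl and 4.90 to 9.77 CPM in sgL1, a difference of 0.88 on the log2 scale (SE 0.20, adjusted p = 0.00538 by edgeR). Its call was lost without sgCtrl 1 (adjusted p = 0.0553). Of 22 other receptors 12 were tested and 1 was called (median 0.12). RELT, a receptor first found in lymphoid tissue, rose by 0.21 on the log2 scale from a mean of 33.6 CPM (SD 1.59) to 38.8 CPM (SD 1.97) (edgeR adjusted p = 0.0458), and was no longer called with any of 8 of the 9 libraries left out (adjusted p up to 0.261). TNFRSF1B, the second receptor of TNF, named after its values were seen, measured 3.01 to 3.32 CPM in sgCtrl and 0.776 to 2.61 CPM in sgL1. Every sgL1 library was below every control, and its log2 fold change of -0.78 missed the threshold (edgeR adjusted p = 0.0502). Against the same controls it was called for libraries 4-6 (-1.21, edgeR adjusted p = 0.00146) and not for libraries 1-3 (-0.44, edgeR adjusted p = 0.229), and between the sgL1 sets it was not called (0.77, edgeR adjusted p = 0.148).

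Downstream of the receptors BID and APAF1 rose and BIRC3 and IKBKB fell, 4 genes in 3 lists of 10, 21 and 7 tested genes, where 9.49% of all genes tested were called. Of 10 tested adaptors and initiators, BID, which links caspase-8 to mitochondria, rose by 0.20 on the log2 scale (edgeR adjusted p = 0.0414) and 0 fell (median 0.03). DAXX, another of the 10, was not called (edgeR adjusted p = 0.899) and was named after its values were seen. It had 5 to 20 counts a library and lies 1747 kb from TNF, in the stretch where most genes are at 0. FADD (-0.03), CASP8 (0.04), RIPK1 (0.01) and TRADD (-0.10) were not called, and RIPK3, a kinase of necroptosis, was listed at 0; they were named after their values were seen. Of 21 tested genes of the TRAF, ubiquitin and kinase complexes 0 rose and 2 fell (median -0.07): BIRC3, a ubiquitin ligase that holds back apoptosis, fell by 0.30 on the log2 scale (SE 0.05; edgeR adjusted p = 1.90e-04), and IKBKB, a kinase that activates NF-kB, fell by 0.23 (edgeR adjusted p = 0.0270). Of 7 tested effector caspases and their regulators, APAF1, the scaffold of the apoptosome, rose by 0.37 (SE 0.06; edgeR adjusted p = 1.41e-04), with 42.2 to 50.4 CPM in sgCtrl and 55.4 to 63.4 CPM in sgL1, and 0 fell (median 0.05).

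Of 5 tested genes for shedding of TNF and its receptors, ADAM17, the protease that releases TNF from the membrane, rose by 0.16 (edgeR adjusted p = 0.0416) and 0 fell (median 0.14), where 5.52% of all genes tested were called higher. The calls of BID and ADAM17 were each lost in 7 of 9 fits that dropped a single library (adjusted p up to 0.254 and 0.183), and that of IKBKB in 4, without sgCtrl 1, sgCtrl 2, sgCtrl 3 or sgL1 5 (adjusted p up to 0.107). 

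Of the lists, genes that TNF is known to induce had the most calls, in a list chosen with earlier results of these data known. Of 13 tested, 8 rose and 0 fell (median 0.35, beside 5.52% higher and a median of 0.002 over all genes tested). CXCL8, a chemokine for neutrophils, measured 69.9 to 72.8 CPM in sgCtrl and 178 to 219 CPM in sgL1, a difference of 1.46 on the log2 scale (SE 0.06, adjusted p = 3.70e-15 by edgeR). The adhesion molecule ICAM1 rose by 0.46 (edgeR adjusted p = 1.44e-05), the cytokine LIF by 0.35 (edgeR adjusted p = 4.16e-05) and the NF-kB inhibitor NFKBIA by 0.27 (edgeR adjusted p = 3.65e-04). TNFAIP3, NFKB2 and RELB, also induced by TNF, had log2 fold changes of -0.04, 0.06 and 0.005 and were not called. Against the same controls NFKB2 was called for libraries 1-3 (0.17, edgeR adjusted p = 0.0139) and not for libraries 4-6 (-0.06, edgeR adjusted p = 0.464). RELB was called in neither set (0.14 and -0.14, edgeR adjusted p = 0.238 and 0.253) but differed between them (0.28, edgeR adjusted p = 0.0344). TNFAIP3 was called in none of these comparisons. CCL20, one of the 8, was near the limit of detection, with means of 0.253 CPM in sgCtrl and 0.828 CPM in sgL1. IER3, also one of the 8, lies -831 kb from TNF in the stretch where most genes are at 0. It had 15 to 65 counts a library, with groups that overlapped. TNFAIP3, NFKB2, RELB, CCL20 and IER3 were named after their values were seen.

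**Figure D5:**
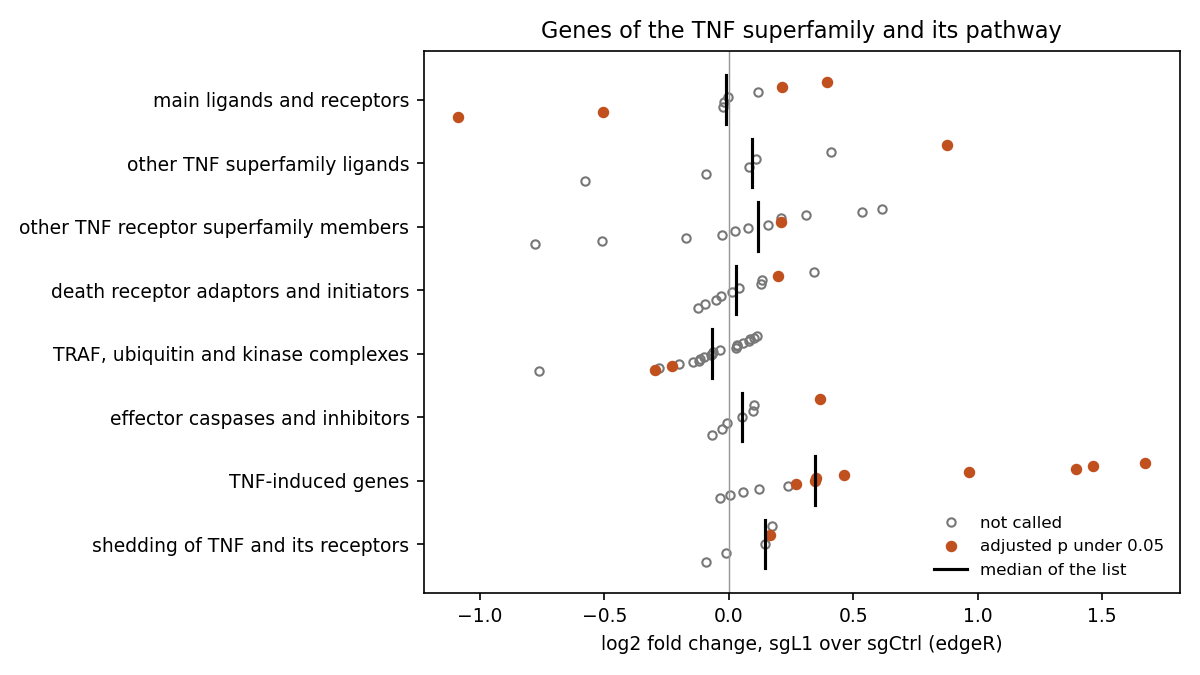
log2 fold change of sgL1 over sgCtrl for each tested gene of 8 lists, filled where the edgeR adjusted p was under 0.05 and open otherwise, with a line at each list's median. The list of TNF-induced genes has 8 filled points, all above 0, while the 21 genes of the TRAF, ubiquitin and kinase complexes have 2, both below 0.

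Transcripts whose pattern over the 9 libraries was most like that of TNFRSF10D, the gene of the 8 with the highest fold change, were CD44 (Pearson r = 0.987), EGLN3 (r = 0.986) and AMIGO2 (r = 0.984), out of 12385 tested protein-coding genes. For TNFSF18, the gene with the lowest, they were MPP5 (r = 0.985), FGF1 (r = 0.985) and NFYA (r = 0.975). These correlations describe the same 9 libraries, in 2 groups, and largely follow the group difference: CD44, a hyaluronan receptor, had a log2 fold change of 0.34, and FGF1, a fibroblast growth factor, one of -0.84.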

How the data were processed

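Total RNA came from cells kept in TRIzol, per the labels' protocols. The tools listed are fastp 0.20.1, STAR 2.7.7a and featureCounts 2.0.0, with the build GRCh38 (hg38), per the submitters' processing notes; settings, annotation release and strand use are not stated there. The authors deposited whole-number counts per gene and FPKM values. The 627 of 59362 rows without a symbol (0.358% to 0.410% of a library's counts) were left out, and symbols on more than 1 row (DIABLO, SOD2) were not used. Differences were tested with edgeR 4.0.16 in R 4.3.3, using filterByExpr, TMM, robust dispersions and the quasi-likelihood F test over all genes; SEs come from the F statistic and 95% intervals are 1.96 SE. It was first tested on simulated data. The common coefficient of variation between libraries was 6.53%. Alternatives used other scalings and filters, DESeq2 1.42.0, limma 3.58.1 (voom, and log2 FPKM with pseudocounts of 1 and 0.1), left-out libraries and a replicate block. Coordinates are from GENCODE release 29, which may not be the authors' release. No 2 libraries of a group agreed within sampling noise (chi-square per gene 2.27 to 9.07, about 1 for noise alone). Named genes are the 10 main genes, up to 4 called genes of each list with the smallest adjusted p, and 3 genes most correlated with the main genes of highest and lowest fold change. Other genes in the text, such as cell type markers, TNFSF12, TNFRSF18, TNFRSF10C, TCF19 and HLA-B, were named outside this rule. The main genes and lists were chosen with earlier results of these data known. No molecular identifiers are described, so the intervals and floors of counts cover only counting error.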

Additional observations from a re-analysis of the deposited data

Results flagged for a closer look

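TNFRSF12A in sgL1 had 1 library far from the other 5: sgL1 2 lay at 194 CPM, and its gap to the next library was 0.767 of the group's whole range, above 0.625, the limit for 6 samples. Of 20 groups looked at in this way, this was the only one flagged, and chance flags about 1 in 20.

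A difference between sgL1 libraries 1-3 and 4-6 was looked for in 21 genes, the main genes and the called genes named from the lists. TNF and TNFSF10, which are among the 21, were not tested. The genes from the lists had been picked for their calls against sgCtrl, which used the same sgL1 libraries. In 3 of the 21, none a main gene, the libraries differed by edgeR's quasi-likelihood test. Over all 14837 genes tested, 2.14% were called higher and 1.86% lower in libraries 1-3. TNFSF15 was higher in libraries 1-3 by 0.60 on the log2 scale (edgeR adjusted p = 0.0192) and LIF by 0.17 (edgeR adjusted p = 0.0453). CXCL8 was lower in libraries 1-3, with a log2 fold change of -0.20 (edgeR adjusted p = 0.00745). Listed genes outside the 21 were called too, such as NFKB2 (0.23, edgeR adjusted p = 0.00770) and CAV1 (-0.15, edgeR adjusted p = 0.0322).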

How the results depend on the processing

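The calls of TNFSF18, TNFRSF21, TNFRSF10B and TNFRSF10D held in all 23 alternatives run for each of them, with log2 fold changes of -1.28 to -0.70, -0.52 to -0.49, 0.18 to 0.25 and 0.37 to 0.44. The 4 tested genes without a call stayed uncalled in all of theirs, but the sign turned in 12 cases. TNFRSF1A turned to 0.040 and TNFRSF10A to 0.026 in sgL1 1-3 alone, and to 0.039 and 0.027 in the replicate block; FAS turned to 0.022 in limma-voom with quality weights and to 0.062 in sgL1 4-6 alone. With single libraries left out, TNFRSF10A ranged from -0.054 to 0.036, FAS from -0.10 to 0.15 and, between sgL1 1-3 and 4-6, TNFRSF21 from -0.043 to 0.012, while 0 to 1 of the 8 genes were called in that comparison. Among the other named genes calls were lost in 16 of 23 alternatives for RELT and for ADAM17, 13 of 23 for BID, 10 of 23 for IKBKB and 3 of 22 for TNFSF15, and in 0 of 23 for BIRC3, APAF1, CXCL8, ICAM1, LIF and NFKBIA. The number of all genes called, 1447, was 856 at an adjusted p under 0.01, 2249 with sgL1 1-3 alone, and 901 to 1758 with single libraries left out. Deviations of same-numbered libraries from their group means correlated at 0.003, -0.07 and -0.02. These values show no shared effect of the replicate number, but they cannot tell whether samples were paired by the replicate number. With that number as a block, libraries 1-3 gave 1851 called genes and again 2 of the 8 higher and 2 lower. The cause of these shifts was not tested. Depth limits TNFSF10 (counting error of 40.8% to 57.7% per library) most.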
